A study of Mus musculus with 2 samples.

Results

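Models with new splice sites are spliced transcripts, assembled from single long reads, that use at least 1 splice donor or splice acceptor absent from the reference annotation. They were studied here in long-read RNA sequencing of the adrenal gland of male B6CASTF1/J mice, 4 days old, the offspring of C57BL/6J and CAST/EiJ mice. The series holds 1 group of 2 biological replicates with 1 library each, no treatment and no transgene. The labels leave the animals unclear: replicate 1's tissue is described as male 03 and replicate 2's as male 04, yet the library text of both says male 03 and the donor identifier is shared. Differences between the libraries may therefore be technical. Because the tissue is bulk, fewer cells of a type and less RNA per cell cannot be told apart.

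Members were the models that both deposited count tables class as NNC, new not in catalog, and that had at least 2 reads in each library. Models of the libraries were matched by chromosome, strand and exact intron chain, the ordered list of intron starts and ends. Of 30723 such chains seen in either library, 745 qualified, out of 78245 spliced chains of any class. For comparison, 1893 new combinations of annotated sites and 11196 known spliced models passed the same minimum. All 745 members held at least 1 splice site outside GENCODE mouse release 21. The reads themselves chose the members, so their counts are a description. Just inside the limit stood 346 members with 2 reads in at least 1 library, of which 125 had 2 and 2, and just outside it stood 851 models with 1 read in 1 library and 2 or more in the other.

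An intron is removed by the spliceosome between a donor, whose first intron bases are usually GT, and an acceptor, whose last intron bases are usually AG. A neighbouring GT or AG can be used in place of the main one, which lengthens or shortens the exon by a few bases. Microexons, very short exons, are a separate class that is spliced in between such sites and is common in muscle and nerve transcripts. In long reads the intron ends are read off the alignment of a whole transcript to the genome, so a short exon must be placed by very few bases.

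Sequences were taken from GENCODE release 21 transcripts on mm10 and show both kinds of change on which the results turn. The first set compares the annotated junction with the member's junction where the member's intron runs across an annotated short exon. Flanking exon bases are in lower case. The capitals mark either the annotated short exon or the bases that the member's coordinates place there, which the annotation counts as the start of the intron. Both are letters of the annotation at the model's coordinates, and no letters of the reads were used. Whether the reads hold these bases or those of the short exon was not tested. All the new donors lie between the first and last coding base of an annotated transcript, introns included.
Mrpl33 with the annotated exon: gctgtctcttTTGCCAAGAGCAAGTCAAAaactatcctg
Mrpl33 member: gctgtctcttGTAAGTCGaactatcctg
Hnrnpk with the annotated exon: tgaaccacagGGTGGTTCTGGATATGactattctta
Hnrnpk member: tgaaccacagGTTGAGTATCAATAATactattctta
Idh3g with the annotated exon: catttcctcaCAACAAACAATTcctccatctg
Idh3g member: catttcctcaGTAAcctccatctg
Capn2 with the annotated exon: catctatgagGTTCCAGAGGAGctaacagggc
Capn2 member: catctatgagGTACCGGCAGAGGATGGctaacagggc
In all 4 pairs the member's capitals start with GT, the start of the annotated intron, because they begin at the annotated donor. By their coordinates, the members of Mrpl33 and Idh3g had fewer bases between the flanking exons than the annotation, with 8 in place of 19 and 4 in place of 12. The member of Hnrnpk had 16 in place of 16, and that of Capn2 had 17 in place of 12.

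The second set shows new sites next to an annotated one, with no short exon involved. Capitals mark the bases between the 2 sites.
Dctn2 donor: gtttgatgcgGTAAGACTGTgtgctacctc
Tmem205 donor: tgctccaacgGTGGGgtcagatggg
Ewsr1 acceptor: atccccccagCAGcgctggagag
Penk acceptor: tctcctacagCccatggcgcg
Atp5j acceptor: gcttctctagTACAGagactcagcc
In Dctn2 and Tmem205 the annotated intron starts at the capitals and the member's intron starts after them, and both introns start with GT. In Ewsr1 and Penk the member's exon starts at the capitals and the annotated exon after them. In Atp5j the member's intron runs on through the capitals to a second AG.

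Members took 5755 of 688260 mouse reads in replicate 1, or 0.836% with a 95% Wilson interval of 0.815 to 0.858%, and 6058 of 810645 in replicate 2, or 0.747% with an interval of 0.729 to 0.766%. All NNC models took 3.45% of mouse reads in replicate 1 and 3.24% in replicate 2. Members thus held 24.2% of the NNC reads in replicate 1 and 23.1% in replicate 2. Of NNC models, 86.0% in replicate 1 and 86.1% in replicate 2 had a single read. A chain was found in replicate 1 alone 12773 times, in replicate 2 alone 14508 times and as NNC in both 2736 times. Intervals cover counting error only, since reads of amplified cDNA are not independent molecules.

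The members lay in 641 genes, 568 of which had 1 member and 12 of which had 3 or more. Protein-coding genes held 723 of them. The median member had 7 reads over both libraries, 84 had at least 10 in each, and 18 had at least 100 over both. The 15 with most reads held 28.0% of all member reads. In genes with at least 20 spliced reads in each library, 590 members took a median of 3.42% of their gene's spliced reads, those of complete spliced models, and 2.97% of all its reads, incomplete and unspliced ones included. Among these, 37 were the most abundant model of their gene, 29 held at least 50% of the spliced reads (23 held at least 50% of all reads), and 114 held under 1% of the spliced reads. A small number of members was thus the most abundant deposited model of its gene, and most held a small share of the reads.

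**Figure D1:**
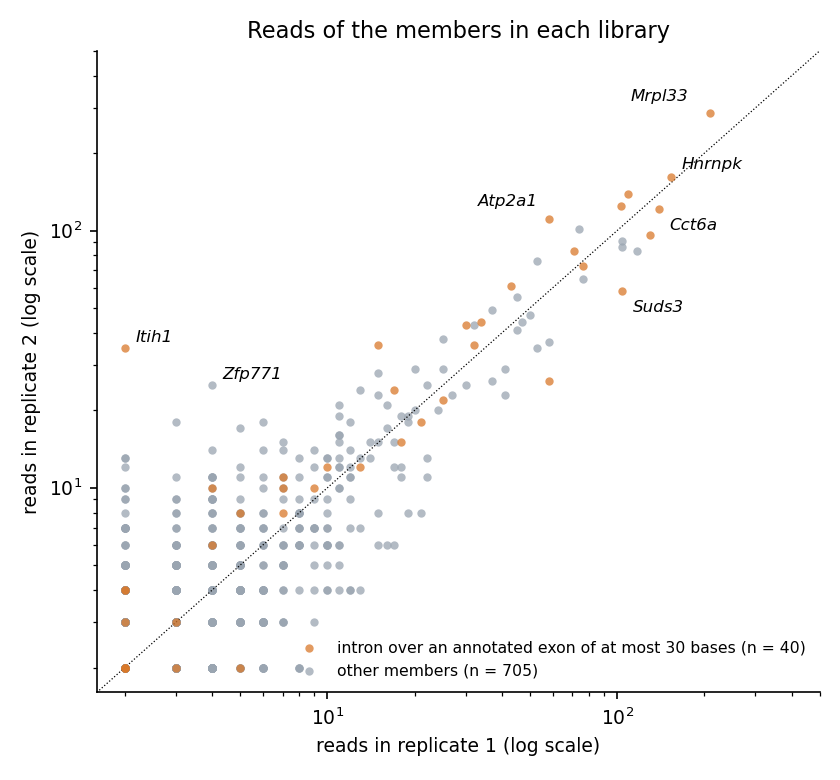
Reads of each of the 745 members in replicate 1 (horizontal, log scale) and replicate 2 (vertical, log scale), 1 point a member, with the dotted line at equal reads. The 40 members with an intron over an annotated exon of at most 30 bases are orange. Of these, 10 are among the 15 members with most reads, with Mrpl33 at 209 and 286 reads. Another 11 of the 40 had 10 reads or fewer over both libraries. Itih1 and Zfp771 lie far above the line.

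Introns that run across annotated short exons were a feature of the abundant members. Of 805 introns with a new site, 42 (5.22%) ran across at least 1 whole annotated inner exon of at most 30 bases on the same strand. The share was 1.39% for new-site introns of models seen in 1 library alone, 0.157% for the annotated introns of the members and 0.384% for the annotated introns of known models with reads. Models labelled as new combinations of annotated sites reached 8.17% among their unannotated introns. The 40 members with such an intron were 5.37% of members but took 26.7% of member reads in replicate 1 and 28.5% in replicate 2. They were 10 of the 15 members with most reads, and 30 of the other 730. This share is compared without a test, since the members were chosen on their reads.

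Most of these short exons were not seen in any deposited model. The 42 introns crossed 53 such exons, of which 43 had 0 reads in both libraries in models with exactly that exon. For 32 of the introns, every short exon inside was at 0 reads. Exons of at most 20 bases were at 0 in 37 of 43 cases, and those of 21 to 30 bases in 6 of 10.

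Annotated exons were counted by length beyond those under the members' introns too. Annotated inner coding exons were counted in genes with at least 20 spliced reads in each library. Of those up to 10 bases, 0 of 27 were found. Of those of 11 to 20 bases, 21 of 72 (29.2%) were found. The share was 87.5% (210 of 240) at 21 to 30 bases, 96.3% at 31 to 40 bases and between 97.2% and 98.9% in all longer classes up to 300 bases. Members' introns crossed 6 of the 27 shortest, 22 of the 72 and 8 of the 240. Alternative use of these exons in this tissue and their placement in the alignment cannot be told apart here.

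**Figure D2:**
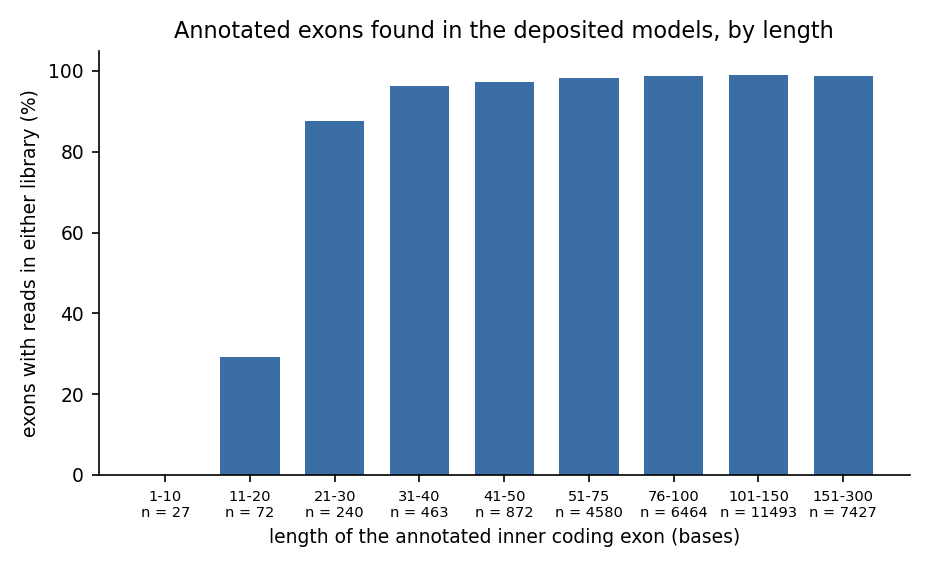
Share of annotated inner coding exons that were found with reads in either library (vertical, %), by exon length (horizontal, bases, with the number of exons under each bar), in genes with at least 20 spliced reads in each library. The bars stand at 0% up to 10 bases, 29.2% at 11 to 20 bases and 87.5% at 21 to 30 bases, then stay above 96%.

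Mrpl33, a protein of the large subunit of the mitochondrial ribosome, gave the most abundant member. It had 209 reads in replicate 1 and 286 in replicate 2, a mean of 328 ± 34.7 CPM (counts per 1000000 mouse reads; SD, n = 2). That was 86.0% of the gene's spliced reads in replicate 1 and 85.6% in replicate 2. Its new donor lies 8 bases into the intron (mm10 chromosome 5, + strand, first intron base 31614031 against 31614023), and its intron crosses a coding exon of 19 bases. Models with that exon had 12 reads in replicate 1 and 19 in replicate 2, so the exon was found but in few reads.

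Hnrnpk, an RNA-binding protein that acts in splicing, followed with 153 reads in replicate 1 and 161 in replicate 2. The member made up 38.7% of the gene's spliced reads in replicate 1 and 39.2% in replicate 2. Its donor (chromosome 13, - strand, first intron base 58394059) lies 16 bases into the intron and the crossed exon is 16 bases long, 1 of 2 cases where both lengths were equal, with Timm50 at 22 bases as the other. The intron was used by other models too, with 386 reads in replicate 1 and 392 in replicate 2 in all, while the 16-base exon had 0 reads in both.

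Other members over a short exon were also the leading models of their genes. Idh3g, a subunit of the mitochondrial isocitrate dehydrogenase, had 109 reads in replicate 1 and 139 in replicate 2, with a donor 4 bases into the intron and a 12-base exon at 0. Col6a1, a chain of type VI collagen, had 103 and 124 reads in replicates 1 and 2 and 2 such introns. In 1 of them a donor at 4 bases lies before a crossed exon of 9 bases. The other has an acceptor 37 bases upstream and crosses the 21-base exons at 76721088 to 76721108 and at 76721263 to 76721283 of chromosome 10. Pitpna, a phosphatidylinositol transfer protein, had 130 reads in replicate 1 and 96 in replicate 2, which was 97.0% and 96.0% of its gene. Capn2, the large subunit of m-calpain, had 34 reads in replicate 1 and 44 in replicate 2, or 97.1% and 93.6% of its gene. In none of these 4 genes did a model with a crossed short exon have a read.

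Atp2a1, the calcium pump of fast muscle, had 58 reads in replicate 1 and 111 in replicate 2, with a donor 26 bases into the intron and an 18-base exon at 0. As a share of the gene it had 60.4% in replicate 1 and 57.2% in replicate 2, so the member moved with its gene. The summed muscle markers stood at 1174 CPM in replicate 1 and at 1907 CPM in replicate 2, and their part in this was not tested. Suds3, a subunit of a Sin3 histone deacetylase complex, had 104 reads in replicate 1 and 58 in replicate 2, with 75.9% and 68.2% of its gene. Cct6a, a chaperonin subunit, had 139 reads in replicate 1 and 121 in replicate 2, with both ends of the intron new, 61 bases downstream and 33 bases upstream of annotated sites, across an exon of 13 bases. Release 21 lists this locus as a processed transcript. Chmp1a, of the ESCRT-III complex, had 71 reads in replicate 1 and 83 in replicate 2, and models with its 20-base exon had 3 and 4 reads.

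A few members crossed a short exon that was well used. Bsg, the membrane glycoprotein basigin, had 30 reads of the member in replicate 1 and 43 in replicate 2, against 698 and 754 reads of models with the crossed 25-base exon. Timm50, of the inner mitochondrial membrane import machinery, had 5 and 2 reads, against 142 and 153 with its 22-base exon. Rnf5, Dtnbp1, Nap1l1 and Hsd17b4 had members of 2 to 10 reads a library over exons with 59 to 94 reads a library.

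In 28 introns over a single short exon, 1 end was new and had moved 1 to 30 bases into the intron. By its coordinates, the member gained a median of 16 bases in place of exons with a median of 18 bases. It gained fewer bases than the exon has in 15 cases, the same number in 2 and more in 11. In 27 of the 28 the new site lay between the first and last coding base of a transcript, introns included. The difference in bases was a multiple of 3 in 8 of these 27.

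**Figure D3:**
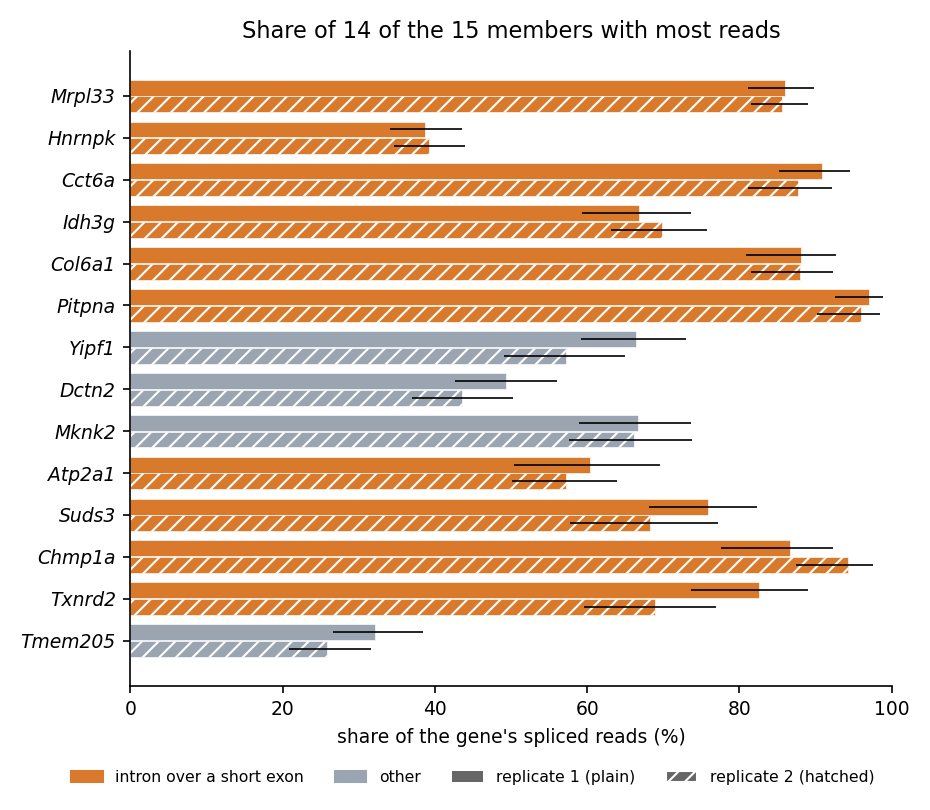
Share of the gene's spliced reads (horizontal, %) taken by 14 of the 15 members with most reads, with replicate 1 in plain bars above replicate 2 in hatched bars and lines for 95% Wilson intervals. Orange marks the 10 members with an intron over a short exon, and the shares run from 97.0% for Pitpna in replicate 1 down to 25.9% for Tmem205 in replicate 2.

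New sites near annotated ones were a second feature. The 745 members held 902 distinct new sites, 489 donors and 413 acceptors. A single new site was present in 603 members and 2 in 124. Of all new sites, 562 (62.3%) lay between the first and last coding base of a transcript of their gene, introns included. A further 177 (19.6%) lay on the 5′ UTR side of the coding bases and 70 (7.76%) on the 3′ UTR side. Sites named below as in a UTR were placed the same way. Within 10 bases of an annotated site of the same kind lay 268 sites (29.7%), while 264 donors and 166 acceptors were over 100 bases away.

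Donors and acceptors had different distances. Among acceptors, 99 of 413 were 1 to 3 bases away, and 61 of these were exactly 3 bases downstream, which takes 3 bases off the exon. A further 18 of the 99 were 3 bases upstream. Among donors, 30 of 489 were 1 to 3 bases away and 88 were 4 to 10 bases away, of which 45 were exactly 4 bases downstream. Acceptor distances of 1 to 3 bases were multiples of 3 in 79.8% of cases, which keeps the frame, and those of 4 to 10 bases in 19.6%. For donors the shares were 36.7% at 1 to 3 bases and 12.5% at 4 to 10 bases. Over all distances they were 46.2% for acceptors and 34.4% for donors.

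**Figure D4:**
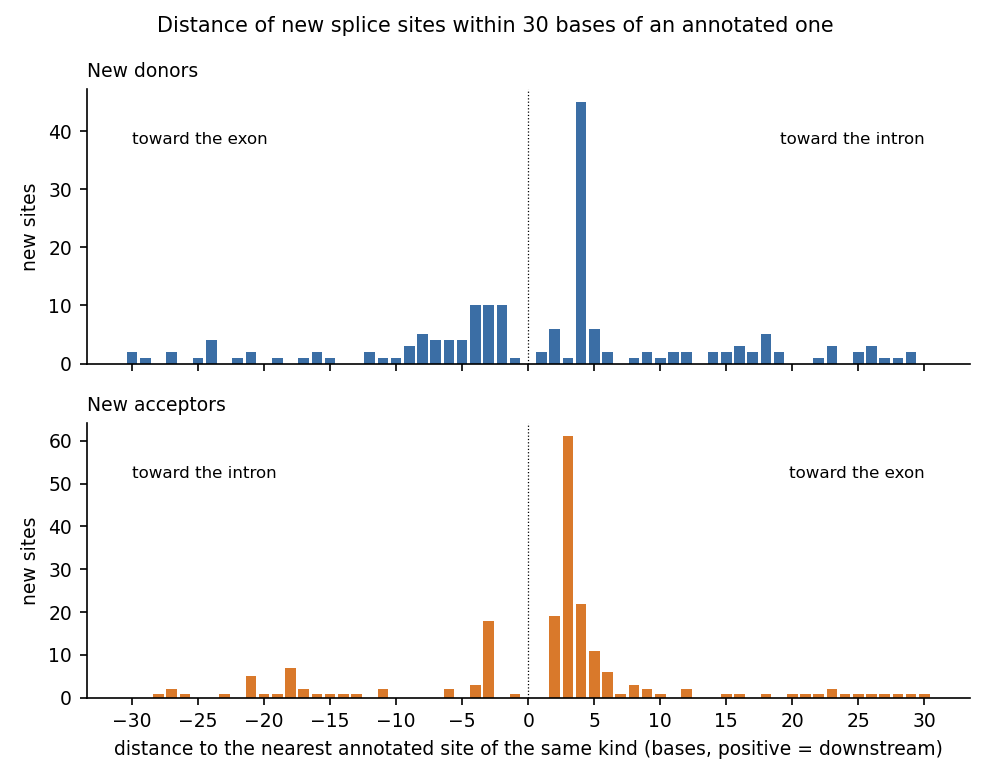
Number of distinct new donors (upper panel) and new acceptors (lower panel) at each distance to the nearest annotated site of the same kind (horizontal, bases, positive is downstream in the transcript), within 30 bases. Donors peak at 4 bases downstream with 45 sites, and acceptors at 3 bases downstream with 61, while among upstream acceptors the most, 18, lie at 3 bases.

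The new site was usually the lesser of a close pair. For 231 of the 268 sites, both sites together had at least 20 reads in each library over all complete models, and the new site held a median of 3.13% of them over both libraries. It held under 5% at 141 sites, 10% or more at 56 and over 50% at 18. Acceptors 3 bases downstream had a median of 5.33% over 51 pairs, with a range from 0.430 to 71.2%. Acceptors 3 bases upstream had a median of 15.1% over 12 pairs.

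The donors at 4 bases fell apart by whether their intron crossed a short exon. The 8 that did held a median of 88.6% of the reads of the pair, from 6.31 to 99.6%. The 34 with enough reads that did not held a median of 1.61%, from 0.0674 to 100%. In Col6a1 the new donor had 117 reads in replicate 1 and 138 in replicate 2, against 0 and 1 at the annotated donor. In Idh3g it had 113 reads in replicate 1 and 149 in replicate 2, against 43 and 46 at the annotated donor. Pold2, a subunit of DNA polymerase delta, had no short exon in the intron and 42 reads in replicate 1 and 29 in replicate 2 at the new donor, against 34 and 31 at the annotated donor.

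Some close pairs without a short exon had a sizeable share at the new site. Ewsr1, an RNA-binding protein of the FET family, used an acceptor 3 bases upstream in 58 of 178 reads in replicate 1 (32.6%, Wilson interval 26.1 to 39.8%) and 78 of 257 in replicate 2 (30.4%, 25.1 to 36.2%). The 2 intervals overlap. Dctn2, a subunit of dynactin, used a donor 10 bases downstream in 111 of 208 reads in replicate 1 (53.4%, 46.6 to 60.0%) and 98 of 209 in replicate 2 (46.9%, 40.2 to 53.7%). Tmem205, a membrane protein, used a 5′ UTR donor 5 bases downstream in 34.4% of 221 reads in replicate 1 and 27.9% of 240 in replicate 2. Atp5j, a subunit of the ATP synthase, used an acceptor 5 bases downstream in its 5′ UTR in 22.6% of 133 reads in replicate 1 and 17.3% of 173 in replicate 2.

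At some sites the annotated partner had no read at all. Penk, the precursor of enkephalins and a product of chromaffin cells, had its 5′ UTR acceptor 1 base upstream of the annotated one in 37 reads in replicate 1 and 49 in replicate 2, with 0 reads at the annotated site in both. The member made up 97.4% of the spliced reads of Penk in replicate 1 and 92.5% in replicate 2. Ptcd3, of the mitochondrial ribosome, had both an acceptor and a donor 4 bases downstream with 51 reads in replicate 1 and 45 in replicate 2, and 0 reads at either annotated site. Vdac3, a channel of the outer mitochondrial membrane, had a donor 1 base downstream with 26 reads in replicate 1 and 29 in replicate 2 and 0 at the annotated site. The Vdac3 member made up only 11.5% of the gene's spliced reads in replicate 1 and 12.9% in replicate 2.

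The letters at the new sites were mostly those of common introns. They could be read only where a release 21 transcript covers them, at 245 of 489 new donors and 294 of 413 new acceptors. They are thus letters of the annotation and not of the reads. Because it is not given whether the aligner or its filters favoured such letters, they are a description and do not bear on whether the sites are real. Of the donors, 223 (91.0%) started with GT, 22 (8.98%) with GC and 0 with other letters. Of the acceptors, 289 (98.3%) ended in AG, 1 in AC and 4 in other letters. New sites of models in 1 library alone had GT at 88.4% of 7618 donors and GC at 11.2%. Annotated donors of the members had GT at 99.5% of 1004 covered sites and GC at 0.398%. All 61 acceptors 3 bases downstream ended in AG, and all 13 covered donors 4 bases downstream started with GT. Among donors 4 bases upstream, 6 had GT and 4 had GC.

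Members also changed transcript structure farther from annotated sites. A new donor joined to an annotated acceptor was present in 389 members, and a new acceptor joined to an annotated donor in 314. Introns with both ends new lay inside a single annotated exon in 52 members. A wholly new inner exon that overlapped no annotated exon was present in 39 members, which had 166 reads in replicate 1 and 213 in replicate 2. Examples are exons of 51 bases in Tbc1d15, a Rab GTPase-activating protein, with 15 reads in each library, 53 bases in Sarnp, an mRNA export factor, with 12 in each, and 150 bases in Oxtr, the oxytocin receptor, with 11 in replicate 1 and 10 in replicate 2.

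Other abundant members had sites far from annotated ones or in 5′ UTRs. Yipf1, a Golgi membrane protein, had a donor 6185 bases from the nearest annotated donor in 117 reads in replicate 1 and 83 in replicate 2, which was 66.5% and 57.2% of its gene. That model has a single intron and spans 107356547 to 107359822 on the + strand of chromosome 4. Mknk2, a kinase that phosphorylates the translation factor eIF4E, had a 5′ UTR donor 42 bases upstream in 104 reads of the member in replicate 1 and 86 in replicate 2, or 66.7% and 66.2% of its gene. Sfr1, a recombination factor, had an acceptor 144 bases upstream with 50 and 47 reads in replicates 1 and 2.

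Rfng, a Fringe glycosyltransferase, had a 133-base intron in its 3′ UTR that was 100% identical to the 133 bases before it, with 10 and 7 reads in replicates 1 and 2. Because the copies are identical, the position of this intron is uncertain. In 8 of the 139 introns with a new end that lie inside a single annotated exon, at least 6 bases were the same at both ends.

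Members were next counted in lists of genes. In genes with at least 20 spliced reads in each library, a member was found in 7 of 16 steroid synthesis genes, 7 of 13 chromaffin genes and 3 of 8 imprinted genes. The counts were 13 of 79 for ribosomal proteins, 14 of 92 for the respiratory chain, 8 of 48 for splicing factors, 1 of 4 for liver genes and 491 of 4508 (10.9%) for all such genes. Over all genes, a member was found more often at greater depth. The share was 5.64% of genes with 40 to 100 spliced reads over both libraries, 20.4% of those with 301 to 1000 and 71.4% of the 14 genes with over 3000. The steroid list had a median of 546 spliced reads a gene and the chromaffin list 659, against 114.5 for all genes. Ribosomal proteins had a median of 792, the respiratory chain 499, imprinted genes 427, splicing factors 196 and liver genes 3385.5. The list counts thus did not follow the medians alone, and the part of depth in the counts was not tested.

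As a share of spliced reads, members took 1.54% in replicate 1 and 1.55% in replicate 2 of the steroid list, and 1.54% and 1.62% of the chromaffin list. In the chromaffin list the Penk member alone gave 37 of 143 member reads in replicate 1 and 49 of 132 in replicate 2. All such genes together had 1.06% and 1.02%. Splicing factors had 3.69% in replicate 1 and 3.36% in replicate 2, of which the Hnrnpk member gave 153 of 209 reads in replicate 1 and 161 of 206 in replicate 2. Ribosomal proteins had 0.233% and 0.267%, and the respiratory chain 0.345% and 0.279%.

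Cyp21a1, the 21-hydroxylase of corticosteroid synthesis, had 13 members. The most abundant had 58 reads in replicate 1 and 37 in replicate 2, 0.505% and 0.521% of the gene, with an acceptor 18 bases upstream of the annotated one. The next had 41 reads in replicate 1 and 23 in replicate 2, with an acceptor 25 bases downstream. The gene has a near-identical pseudogene, Cyp21a2-ps, so the assignment of these reads is uncertain. Cyp11a1, the side-chain cleavage enzyme that starts steroid synthesis, had 6 members of 2 to 6 reads a library, and Cyp11b1, the 11-beta-hydroxylase, had 5 members of 2 to 5 reads.

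Hsd3b1, a 3-beta-hydroxysteroid dehydrogenase of a family of similar genes, had few complete spliced reads, 62 of its 5631 reads in replicate 1 and 63 of its 3995 in replicate 2. A 5′ UTR acceptor 31 bases downstream was present in 20 reads in replicate 1 and 29 in replicate 2, or 32.3% and 46.0% of those complete spliced reads but 0.355% and 0.726% of all reads of the gene. A second member had 10 and 13 reads. Nr5a1, the transcription factor SF-1 of steroidogenic cells, had 5 members of 4 to 18 reads a library, 3 of them with a new donor in the first intron.

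In the chromaffin list, Chga, chromogranin A, had 5 members of 2 to 19 reads a library, at most 0.654% of the gene in replicate 1 and 0.591% in replicate 2. Cyb561, the cytochrome of chromaffin granules, had members with 18 and 19 reads and with 17 and 12 reads in replicates 1 and 2, both with a new first donor. Among imprinted genes, Cdkn1c, a cell cycle inhibitor, had a member with 25 reads in replicate 1 and 38 in replicate 2, with a donor 12 bases upstream. Its 84-base intron lies inside a single annotated exon and was 70.2% identical to the 84 bases after it. The part of this likeness in the placement of the intron was not tested. Rps24, a protein of the small ribosomal subunit, had a member over a 20-base exon with 15 reads in replicate 1 and 36 in replicate 2, or 26.3% and 38.3% of its spliced reads.

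The use of models was compared between the libraries. The reads of a model were compared with the other spliced reads of its gene by a two-sided Fisher's exact test, with Benjamini-Hochberg adjustment over all 5546 models with at least 20 reads over both libraries. With 1 library on each side the test compares the libraries, not the animals, and covers counting error only. Calls needed both an adjusted p under 0.05 and a difference of 10 points or more. It was called for 1 of 95 members tested, against 20 of all 5546 models (0.361%). At an unadjusted p under 0.05 stood 11 of the 95 members and 395 of all 5546 models.

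The called member was in Zfp771, a zinc finger protein. It had 4 of 62 spliced reads in replicate 1 (6.45%) and 25 of 63 in replicate 2 (39.7%), a difference of -33.2 points (Fisher's exact test, Benjamini-Hochberg adjusted p = 0.0032). Its new acceptor lies 13 bases upstream of the annotated one in the 5′ UTR. Rrp1, a ribosome biogenesis factor with a member over a 20-base exon, had 21 of 22 spliced reads in replicate 1 (95.5%) and 18 of 26 in replicate 2 (69.2%), and was not called (Fisher's exact test, adjusted p = 0.633). A miss at this depth does not show that the shares were the same.

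Levels between the libraries spread as those of other models did. The log2 ratio of CPM with 0.5 CPM added, replicate 1 over replicate 2, had a median of 0.20 over the 745 members and 0.20 over all 14049 models with at least 2 reads in each library. Both medians equal the value of a model with 2 reads in each library. The SD was 0.70 over members and 0.74 over all such models, and members ranged from -3.68 to 2.03. The lowest was Itih1, an inter-alpha-trypsin inhibitor chain made in liver, with 2 reads in replicate 1 and 35 in replicate 2.

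Tissue markers differed between the libraries. The sum of 5 adrenal cortex markers was 40434 CPM in replicate 1, against 27820 CPM in replicate 2, and that of 5 medulla markers was 12468 CPM in replicate 1, against 9258 CPM in replicate 2. Both marker sets were thus abundant in both libraries. The sum of 6 liver markers was 206 CPM in replicate 1, against 9802 CPM in replicate 2. Kidney markers were low, at 36.3 and 8.64 CPM in replicates 1 and 2, and fat markers stood at 1424 and 1974 CPM. Itih1, with more reads in replicate 2, moves with the liver markers, and their part in its ratio was not tested.

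The class label left out models with the same kind of site. Counting every complete new model with a site outside release 21 and at least 2 reads in each library gave 1067, of which 745 were NNC in both tables, 118 were NNC in replicate 1 and NIC (new in catalog, a new combination of known sites) in replicate 2, 97 the reverse and 107 NIC in both. The largest such models were in Cdkn1c, with an acceptor 3 bases downstream (chromosome 7, - strand, last intron base 143460676). They had 308 reads in replicate 1 and 315 in replicate 2 in the first, and 259 and 233 in the second. Both were chosen for mention after their values were seen.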

How the data were processed

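Each deposited quantification table holds the raw count of long reads for every transcript model of 1 library, not normalized by the authors. Per the file descriptions they rest on filtered alignments to mm10 with GENCODE mouse release 21; per the file headers, models carry TALON classes. Exon coordinates, counted from 1, were read from the annotation files deposited beside them. Which aligner and filters were used is not given in the sources used here. Replicate 1 held 707726 reads and replicate 2 held 832552, of which 688260 and 810645 were on mouse chromosomes; a single read equals 1.45 and 1.23 CPM.

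Intron chains were built from the annotation files, and the reads of models with the same chain were summed. Splice sites were called new if no release 21 transcript has them, and each distance is to the nearest annotated site of the same kind on the same strand. No genome was used: letters come from release 21 transcripts (141767, 128191279 bases). Python 3.11.15, NumPy 2.4.6 and SciPy 1.17.1 were used, with edgeR 4.0.16 and DESeq2 1.42.0 for scaling factors alone. The usage test was tested on simulated counts of the 5546 models: it called 73 of 77 models changed by 40 points, 23 of 60 changed by 20, 7 of 63 changed by 10 and 0 of 5346 unchanged. The simulated counts held counting error only, so they do not show how often other spread between libraries would be called. Alternatives were other read minimums, distances, exon lengths, scalings and each library alone.

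Named were the 15 members with most reads (1 of them is not reported here), the 10 with the largest share of their gene, called differences, the 2 with most reads in each distance class, the 8 with most reads over a short exon and members in the fixed gene lists. Others (Bsg, Timm50, Rnf5, Dtnbp1, Nap1l1, Hsd17b4, Pold2, Rfng and the new inner exons) were named after their values were seen. The members and lists were chosen with earlier results of these data known.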

Additional observations from a re-analysis of the deposited data

How the results depend on the processing

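The number of members followed the read minimum: 2736 at 1 read in each library, 399 at 3 and 185 at 5, and 2232 to 2439 with a single library required (without replicate 2 and without replicate 1). Introns over short exons made up 14.4% at 5 reads in each library, against 5.22%, and 3.35 to 3.64% with a single library. Sites near annotated ones made up 40.6% within 30 bases and 34.6% at 5 reads, against 29.7%, and 27.2 to 30.2% with a single library. GT at new donors stayed between 90.8% and 93.0%, and AG at new acceptors between 98.0% and 98.6%, under the alternatives run. Called members numbered 0 of 37 with at least 50 reads a model and 2 of 95 with all reads of the gene as the base, where Rrp1 was added at an adjusted p of 0.0482 (Fisher's exact test, 0.633 with spliced reads). All models called numbered 13 and 54 under the same settings, against 20. NNC models took 4.41% and 4.38% of the spliced complete reads in replicates 1 and 2, and members alone 0.836% and 0.747% of mouse reads. The median log2 ratio of members was 0.15 with TMM and 0.11 with DESeq2 size factors, against 0.20, which moves all models by the same shift. Counting every complete new model with a site outside the annotation, an alternative chosen after the data were seen, gave 30.7% near sites and 5.17% introns over short exons. The shares over all reads of a gene were likewise added after the data were seen. The cause of these shifts was not tested, apart from the smaller number of models under stricter minimums. No paired analysis was possible because the series has 1 group. Depth limits members to those with at least 2 reads in each library, and a count of 0 allows up to 3 reads.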

Other observations

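Some models with new splice sites had reads in a single library and so were not members. A model of Uchl1, a neuronal ubiquitin hydrolase, had 0 reads in replicate 1 and 91 in replicate 2, where the gene had 11 and 107 spliced reads in all; a count of 0 in replicate 1 allows a share of up to 27.3% there. A model of Trf, transferrin, had 0 and 30 reads, with 153 and 4536 spliced reads of the gene, and a model of Rbp4, a retinol carrier, had 0 and 17 reads with 10 and 859. Both are made in liver, whose markers were at 206 CPM in replicate 1 and 9802 CPM in replicate 2; their part was not tested.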
